A study of Mus musculus with 21 samples.

Results

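The terminal step of red cell formation in mouse bone marrow was described by setting the 3 arrays titled Ter119 against the 3 titled CFUe, 6 of the 21 arrays of the study. The arrays measured transcript levels in 7 sorted fractions of C57BL/6 marrow, with 3 arrays each, and the labels give no age, genotype change or treatment. Per the labels, CFUe cells were lineage-negative, ckit+ and sca1+, and negative for CD150, CD105 and FCGrI/II, whereas Ter119 cells were CD71+ and Ter119+. The 3 Mac1Gr1 arrays (Mac1+ Gr1+ mature myeloid cells) served to separate rises that the same marrow's myeloid cells shared from rises they did not. The labels give PreGM the same gate as CFUe and do not say whether the arrays of a fraction came from separate mice, so p-values measure the spread between these samples, which may be technical.

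CFUe (colony-forming unit erythroid) cells are dividing progenitors that depend on erythropoietin. Their descendants, the erythroblasts marked by the antigen Ter119 and by the transferrin receptor CD71, fill with haemoglobin, build a membrane skeleton, condense and expel the nucleus, and clear mitochondria and ribosomes before they enter the blood. A CD71+ Ter119+ gate takes in erythroblasts and young reticulocytes, whose transcript pool is already limited.

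A level below is log2 of the background-corrected signal minus the array's 75th percentile, so that 0 is the 75th percentile of the array, and each difference is in log2 units. A difference was called at a limma adjusted p under 0.05 and at least 2-fold. The percentile itself stood at a signal of 506 to 607 on the CFUe arrays and 197 to 292 on the Ter119 arrays. The 9 probes of listed globins took 5.66% to 7.92% of all signal in Ter119 and 0.0122% to 0.0183% in CFUe. Scaling to the spike-in RNAs instead moved the median difference over all genes from -0.06 to -1.43, so every change here is relative to the other transcripts of the same array and none is an amount per cell. In bulk samples, fewer cells of a type and less RNA per cell cannot be told apart. The arrays lay on 9 slides and were scanned on 1 day. Ter119 replicate 3 and CFUe replicate 1 shared a slide, and 17536 probes were at least 2-fold apart between them. With slide as a block 8409 probes were called higher in Ter119 and 8350 lower. Transcripts of the sex chromosomes put 2 of 3 CFUe arrays with all 3 Mac1Gr1 arrays, and the other CFUe array with all 3 Ter119 arrays, so this class and Ter119 against Mac1Gr1 cannot be told apart.

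The sorting antigens were checked first. Tfrc (CD71) stood at 3.06, 3.63 and 3.83 in Ter119 and at 3.41, 3.05 and 2.88 in CFUe, 2 ranges that overlapped (difference 0.39 ± 0.18 SE, limma adjusted p 0.0571). Against the CFUe label, Ly6a (Sca1) was detected well above background by a single CFUe array of the 3 (-6.12, -6.84 and -4.49), and Eng (CD105) stood at 2.34, 2.50 and 2.56 there. Eng fell by 4.69 to Ter119 (limma adjusted p 2.87e-15).

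Transcripts of white cells were present on the Ter119 arrays beside those of red cells. The summed linear level of 22 granulocytic markers, on a scale where 1 is the array's 75th percentile, had a lowest, median and highest value of 5468, 5842 and 6671 over the Ter119 arrays, 6.69, 7.30 and 46.8 over the CFUe arrays, and 6945, 7371 and 7958 over the Mac1Gr1 arrays. Ter119 thus lay far above CFUe and below every Mac1Gr1 array. The 13 B cell markers summed to 249, 256 and 352 in Ter119 and to 59.3, 87.6 and 93.3 in Mac1Gr1, and the 18 T and NK cell markers to 47.3, 50.4 and 63.1 against 11.6, 13.2 and 15, so that both lymphoid sums were higher in Ter119 than in Mac1Gr1. The T and NK cell sum was not highest in Ter119, since it ran from 119.6 to 146 in GMP, the granulocyte and macrophage progenitor, and from 40.5 to 59.1 in PreGM. The 23 monocyte and macrophage markers summed to 326, 351 and 376 in Ter119 and to 777, 877 and 878 in Mac1Gr1. In CFUe the highest sum of these lists was 5.99 for B cells, 4.43 for T and NK cells and 3.04 for monocytes and macrophages. CFUe replicate 3 stood apart from the other CFUe arrays in such genes: Cd79b, a subunit of the B cell receptor, stood at -3.63, -3.80 and -0.64. Without that array 8542 probes were called higher and 8293 lower, against 8604 and 8280 with it. The part of white cell RNA in any result was not tested.

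**Figure D1:**
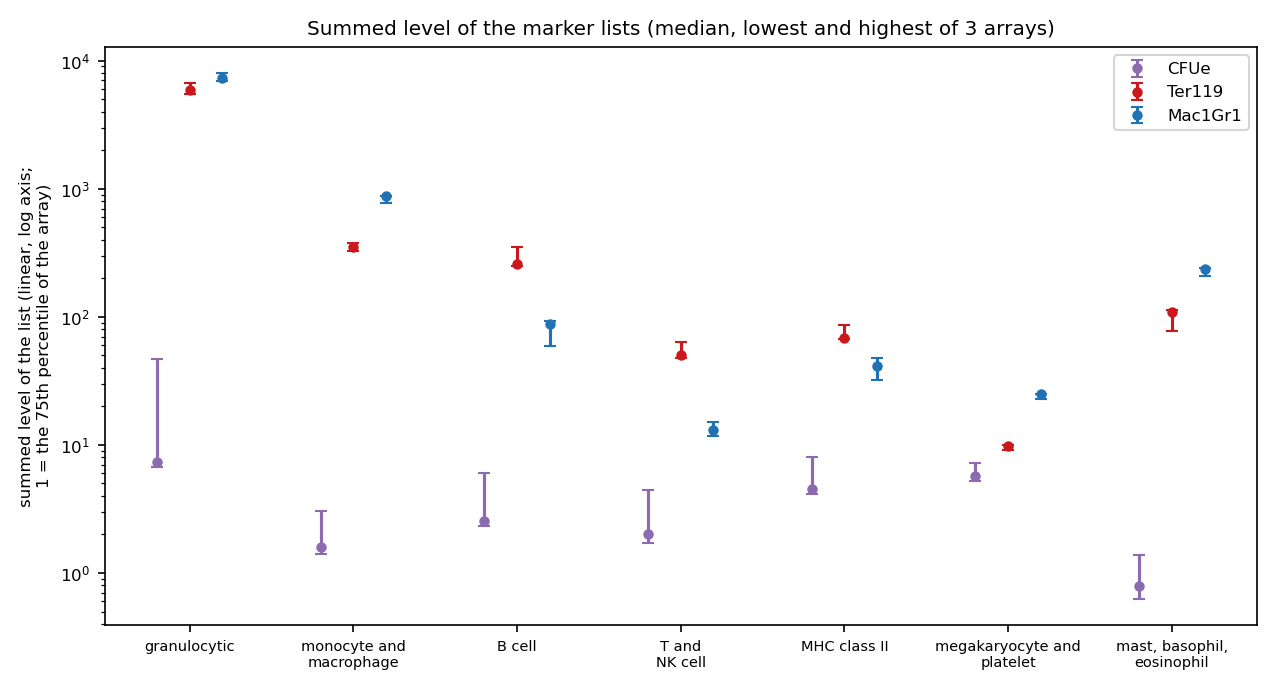
Summed linear level of 7 marker lists (log axis; 1 is the 75th percentile of the array) in CFUe, Ter119 and Mac1Gr1, with points at the median and bars from the lowest to the highest of 3 arrays. Granulocytic, B cell and T and NK cell sums on the Ter119 arrays lie far above those of CFUe, and the B cell and T and NK cell sums also above those of Mac1Gr1.

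Of 14311 genes tested, 4193 (29.3%) were called higher in Ter119 and 4562 (31.9%) lower, with a median difference of -0.06, and the count of each list was read against these shares. On the probe level 8604 of 29532 (29.1%) were higher and 8280 (28%) lower, but 4057 and 16558 with spike-in scaling. For 11488 genes (80.3%) the 3 Ter119 levels did not overlap the 3 CFUe levels. The rises were divided by Mac1Gr1. A first set of 1554 genes (10.9% of those tested) was also called higher in Ter119 than in Mac1Gr1, with a median rise of 2.75 over CFUe. A second set of 2260 genes (15.8%) was not, and was called higher in Mac1Gr1 than in CFUe (median rise 2.49). The remaining 379 (2.65%) were neither (median rise 1.27). Against Mac1Gr1 itself, 3365 genes (23.5%) were called higher in Ter119 and 2796 (19.5%) lower.

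An excess over Mac1Gr1 did not by itself set red cell genes apart from white cell genes. Of 99 tested genes on the 6 leukocyte lists, 37 fell in the first set, 54 in the second and 1 in the remainder, 7 were not called and 0 were lower than in CFUe. The B cell markers stood between -1.34 and 2.56 above Mac1Gr1 in log2 units and the T and NK cell markers between -0.93 and 4.46. The listed globins stood 6.39 to 8.94 above it. Where no Mac1Gr1 array was well above background, as for Tmod1 and Hbb-bh1, such an excess is a fitted value and no bound. When an excess of at least 16-fold was asked for, a limit chosen after the values had been seen, 245 genes of the first set (1.71% of those tested) were left, among them the 4 listed globins, 7 of 9 haem genes and 10 of 11 membrane genes, but 1 of the 37 leukocyte markers. That gene was Gzma, a granule protease of killer lymphocytes (4.46 above Mac1Gr1). The 245 also held 4 Y-linked genes, and, as given above, the sex-chromosome class and Ter119 against Mac1Gr1 cannot be told apart.

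**Figure D2:**
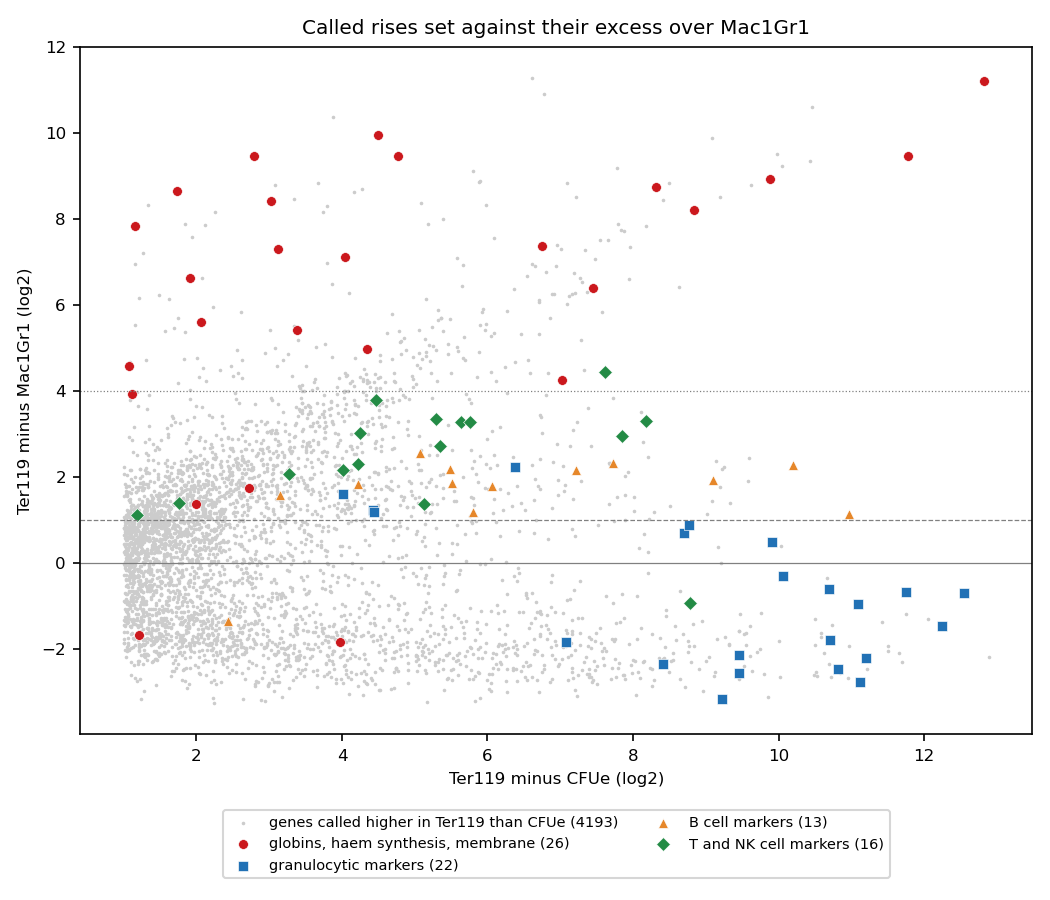
Each point is a gene called higher in Ter119 than in CFUe; the x axis is its difference between Ter119 and CFUe and the y axis that between Ter119 and Mac1Gr1, both in log2 units. The 26 globin, haem and membrane genes (circles) lie mostly above the dotted line at 16-fold (4), the 22 granulocytic markers (squares) mostly between -3.17 and 1, and the B cell and T and NK cell markers mostly between 1 and 4.

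Haem synthesis was among the pathways gained. Of 16 genes tested, 10 were called higher and 1 lower (62.5% and 6.25%, against 29.3% and 31.9% of all genes). The median difference of 1.16 turned to -0.22 with spike-in scaling. Alas2, the erythroid enzyme that starts haem synthesis, stood at 9.63 to 10.13 on the 3 Ter119 arrays and at -3.00, -2.87 and -2.85 in CFUe. It was the largest rise of the first set, at 12.82 ± 0.29 (SE, 7253-fold, limma adjusted p 1.74e-15), and no array of either fraction came near the other. Slc25a37 (mitoferrin), which carries iron into mitochondria, rose by 7.03 ± 0.14 (limma adjusted p 6.33e-16), from 1.94 to 2.28 in CFUe to 8.93 to 9.31 in Ter119.

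The middle of the pathway moved much less. Ppox, the penultimate enzyme, rose by 2.0 ± 0.14 (limma adjusted p 1.12e-09). Uros and Urod, enzymes of the middle steps, rose by 1.07 and 1.11 and turned to -0.30 and -0.26 with spike-in scaling; without Ter119 replicate 2 their rises were 0.998 and 0.96, under 2-fold. Alad and Cpox, enzymes before and after these, were not called (-0.89 ± 0.23 and -0.44 ± 0.96). Alad was called lower without Ter119 replicate 2 (-1.08) or 3 (-1.06) and with spike-in scaling (-2.27), and stood at -0.54 without Ter119 replicate 1. Among helpers, the mitochondrial transporter Abcb10 rose by 2.06, Fam210b by 3.38 and the iron-sulphur protein Isca1, of the iron list, by 3.01, whereas Tmem14c, which moves a haem precursor across the inner mitochondrial membrane, fell by 2.02 (limma adjusted p 3.52e-09). Flvcr1, a haem exporter, fell by 1.65 (limma adjusted p 5.58e-10).

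All 4 globin genes of the list that were tested rose, by a median of 8.15. The theta globins Hbq1a and Hbq1b, which were not on the list and were added after their values had been seen, were also called higher (Hbq1b by 7.55 ± 0.21, limma adjusted p 1.17e-14), and over these 6 genes the median was 8.19. Hba-a1 stood at 11.48, 11.22 and 11.03 in Ter119 and at 2.17, 2.54 and 2.50 in CFUe, a rise of 8.84 ± 0.26 (limma adjusted p 2.21e-14). Hbb-bt, an adult beta chain, rose by 7.46 ± 0.23 (limma adjusted p 3.37e-14). The probes of the embryonic chains rose too: Hbb-y stood at 6.70, 6.23 and 6.84 in Ter119 against -3.60, -2.91 and -3.37 in CFUe (9.89 ± 0.26), and Hbb-bh1 rose by 6.75 ± 0.67, from CFUe arrays of which 1 was well above background. Globin genes are close in sequence and the probes were not tested for cross-hybridisation, so the embryonic values may include adult transcripts.

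Part of the membrane and its skeleton rose as well. Of 27 genes tested, 12 were called higher and 2 lower (44.4% and 7.41%, against 29.3% and 31.9% of all genes). The list median was 0.97, but -0.40 with spike-in scaling, and 11 of the 12 rises exceeded Mac1Gr1. Slc4a1 (band 3), the anion exchanger that anchors the skeleton, stood at 8.73, 9.08 and 8.84 in Ter119 and at -3.03, -2.96 and -2.69 in CFUe. Its rise of 11.78 ± 0.22 (limma adjusted p 3.32e-16) was 3510-fold, with a narrow spread in both fractions. Tmod1, which caps actin filaments of the skeleton, did not rise well above background in CFUe, so its Ter119 level is given as a bound, at least 99.0-fold higher.

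The other skeleton genes given here rose by less. Their CFUe means differed, at -2.05 for Epb42, -1.20 for Sptb, -0.43 for Dmtn and 3.92 for Ank1. Epb42 (protein 4.2) rose by 4.77 ± 0.44, Epb41 (protein 4.1) by 4.34 ± 0.12 and Dmtn (dematin) by 4.04 ± 0.39 (largest limma adjusted p of the 3, 4.86e-08). Sptb, a spectrin, rose by 3.02 ± 0.81 (limma adjusted p 0.0027), with the other Sptb probes as low as -1.0. Ank1 (ankyrin) rose by 1.16 ± 0.30 from 3.73 to 4.01 in CFUe and turned to -0.21 with spike-in scaling; with slide as a block the rise was 0.90, under 2-fold. Of the blood group proteins, Kel rose by 1.73 ± 0.41 while Xk, its partner, fell by 1.35 ± 0.23, where the 3 Xk probes ran from -1.4 to 0.3. The glucose transporter Slc2a1 rose by 3.97 and was higher in Mac1Gr1 (2.31 to 2.52) than in Ter119 (0.56 to 0.62).

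**Figure D3:**
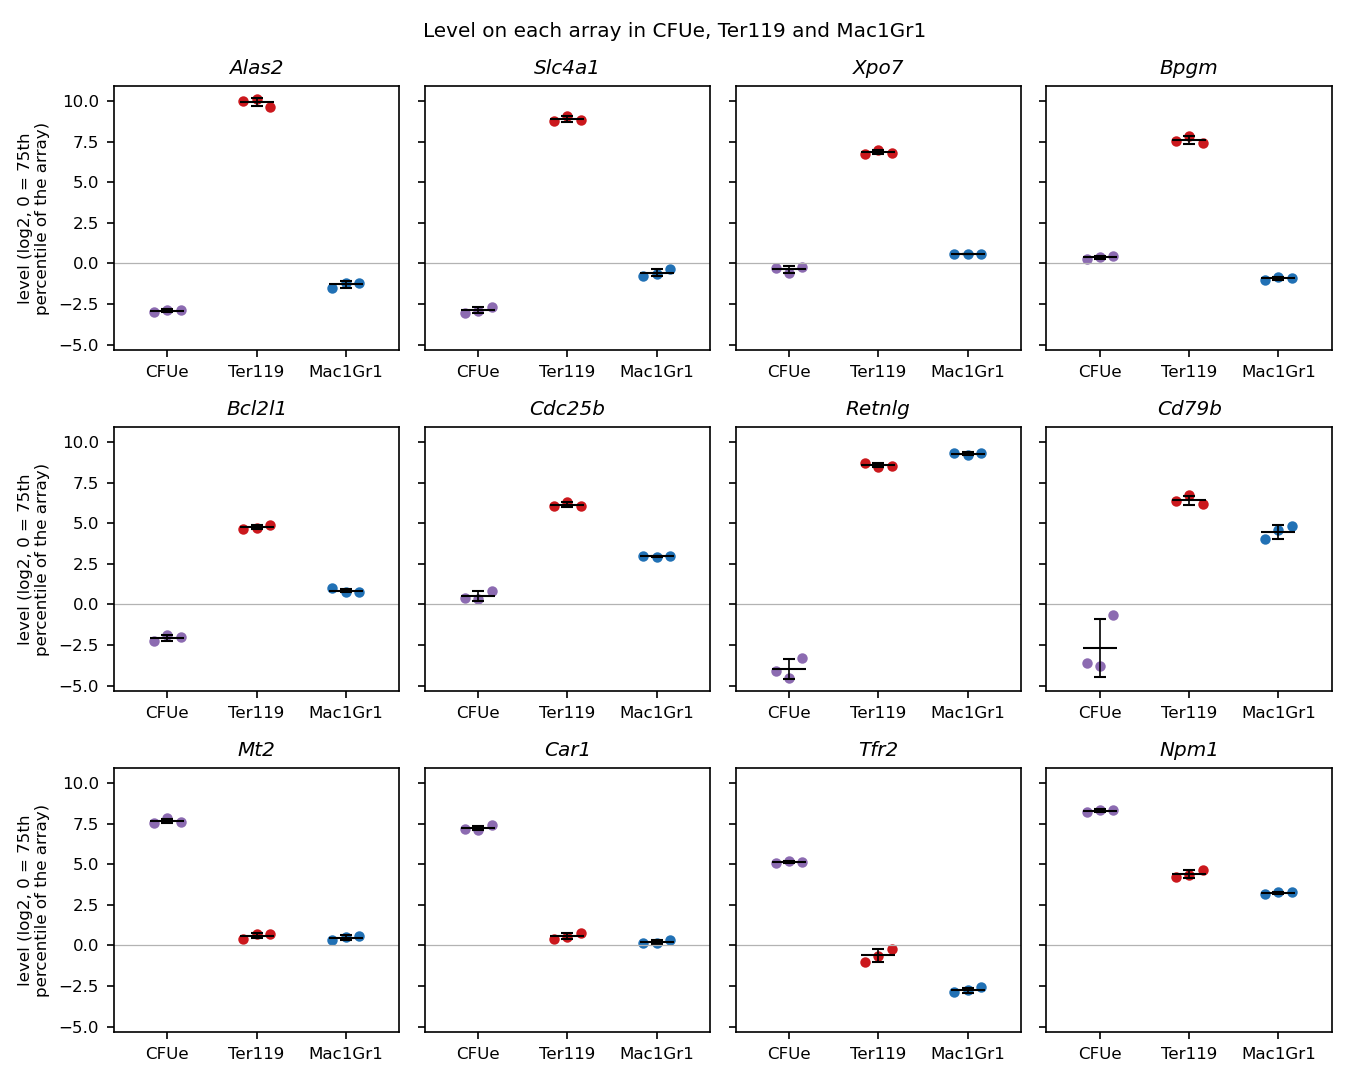
Level of 12 genes on each array (log2; 0 is the 75th percentile of the array) in CFUe, Ter119 and Mac1Gr1, with the mean and SD of 3 arrays in black. Alas2, Slc4a1, Xpo7, Bpgm, Bcl2l1 and Cdc25b are highest in Ter119, Retnlg is near its Mac1Gr1 level there, Cd79b exceeds its Mac1Gr1 level, and Mt2, Car1, Tfr2 and Npm1 are highest in CFUe.

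Promoters were examined because genes of haem, globin and membrane rose together. GATA factors bind short sites of the kind AGATAA, with T also taken as the first letter and G also as the last, which were searched on both strands in the 250 bases upstream of the start (RefSeq, GRCm38.p6). A gene counted if the window of any of its listed starts held at least 1 match, so genes with more starts had more chances. This held for 10 of the 18 membrane genes that had a promoter (55.6%) and 3 of 12 haem genes (25.0%). It also held for 348 of 1180 genes of the first set (29.5%), 66 of 187 with at least a 16-fold excess over Mac1Gr1 (35.3%) and 733 of 3728 falls (19.7%). The number of starts per gene was not compared between these groups. Over all tested genes with a promoter the share was 22.5% (2572 of 11444), and over all 27025 genes with a promoter, tested or not, 29.7%. For 5 genes whose rises are given above, the window of the first listed start is shown, with exactly 1 match each. Each window runs 5′ to 3′ along the gene's strand with the match in capitals, read on either strand. Alas2 lies on the plus strand (chrX:150547167-150547416), Hbb-y on the minus strand (chr7:103853208-103853457), Hba-a1 on the plus strand (chr11:32283422-32283671), and Epb42 (chr2:121036878-121037127) and Epb41 (chr4:132075314-132075563) on the minus strand.
Alas2: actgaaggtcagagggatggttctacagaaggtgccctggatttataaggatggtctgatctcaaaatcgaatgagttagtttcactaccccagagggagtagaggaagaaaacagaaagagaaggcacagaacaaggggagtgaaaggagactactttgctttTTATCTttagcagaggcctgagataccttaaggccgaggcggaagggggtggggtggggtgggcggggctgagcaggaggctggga
Hbb-y: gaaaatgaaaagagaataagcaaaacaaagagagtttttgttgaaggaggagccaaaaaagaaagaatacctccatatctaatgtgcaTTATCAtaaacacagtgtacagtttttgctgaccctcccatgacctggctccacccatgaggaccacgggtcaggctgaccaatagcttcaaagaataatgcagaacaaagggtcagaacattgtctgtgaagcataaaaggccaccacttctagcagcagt
Hba-a1: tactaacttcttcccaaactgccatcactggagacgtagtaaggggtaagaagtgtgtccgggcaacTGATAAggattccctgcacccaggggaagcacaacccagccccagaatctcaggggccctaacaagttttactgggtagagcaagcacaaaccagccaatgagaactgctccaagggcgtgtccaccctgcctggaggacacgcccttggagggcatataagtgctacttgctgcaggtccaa
Epb42: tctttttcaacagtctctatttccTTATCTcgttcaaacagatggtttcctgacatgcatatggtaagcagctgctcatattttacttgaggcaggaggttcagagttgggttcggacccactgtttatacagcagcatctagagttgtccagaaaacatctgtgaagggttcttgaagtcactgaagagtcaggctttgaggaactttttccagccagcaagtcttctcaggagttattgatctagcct
Epb41: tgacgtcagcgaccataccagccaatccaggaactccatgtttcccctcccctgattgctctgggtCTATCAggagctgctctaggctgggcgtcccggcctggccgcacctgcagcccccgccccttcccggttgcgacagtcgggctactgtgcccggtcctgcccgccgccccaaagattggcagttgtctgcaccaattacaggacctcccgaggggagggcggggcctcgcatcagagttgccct
The matches began 86, 162, 183, 226 and 184 bases upstream of the start, in that order. A match describes the letters only and is no evidence of binding.

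Of 21 iron genes tested, 6 were called higher and 8 lower (28.6% and 38.1%, near the 29.3% and 31.9% of all genes, median -0.58), and 4 of the 6 rises were also high in Mac1Gr1. Tfr2, the second transferrin receptor and a partner of the erythropoietin receptor, stood at 5.07, 5.21 and 5.12 in CFUe and at -1.0, -0.62 and -0.23 in Ter119, and fell by 5.75 ± 0.17 (limma adjusted p 2.64e-14), the largest fall of the list. Tfrc, the other transferrin receptor, was not called, as given above. Genes of endosomal steps fell: Steap3, a ferrireductase, by 2.21 and Slc11a2 (DMT1), the exporter of endosomal iron, by 1.28, where the 3 Slc11a2 probes ran from -2.6 to 0.8. Both calls depended on the processing: Steap3 stood at -0.49 with normexp, and Slc11a2 at -0.93 with quantile scaling and -0.99 with the series table. Aco1, an iron-responsive regulator, fell by 2.83 on 1 probe, and another probe gave 2.8. Ncoa4, the receptor that takes ferritin to the lysosome, rose by 4.27 ± 0.12 and exceeded Mac1Gr1 by 1.57 (limma adjusted p for the rise 1.02e-14).

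Genes of protein and organelle turnover came next. Of 28 genes of ubiquitin ligation linked to red cells, 15 were called higher (53.6%, against 29.3% of all genes) and 4 lower (median 1.45, and 0.07 with spike-in scaling), and 12 of the 15 exceeded Mac1Gr1. Ube2o, an enzyme that tags ribosomal and other proteins for removal, stood at 8.63, 8.90 and 8.44 in Ter119, 3.47, 3.51 and 2.84 in CFUe, and 0.51 to 0.71 in Mac1Gr1. It rose by 5.39 ± 0.18 (41.8-fold, limma adjusted p 8.06e-14), with all Ter119 arrays above all others. Ube2l6, the conjugating enzyme of ISG15, rose by 5.06, Ube2h by 4.89, Fbxo34 by 4.52 and Rnf10 by 3.72. Huwe1, a ligase of wide action, fell by 1.84 (limma adjusted p 6.23e-12; its 5 probes lay between -1.8 and -0.5).

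Among 25 genes of autophagy and organelle clearance, 9 were called higher (36.0%, near the 29.3% of all genes) and 3 lower (median 0.69, but -0.69 with spike-in scaling), and 5 of the 9 rises were also high in Mac1Gr1. Bnip3l (Nix), the receptor that marks mitochondria for removal in reticulocytes, stood at 6.42 to 6.59 in Ter119 against 2.38 to 2.82 in CFUe (3.95 ± 0.13, limma adjusted p 6.08e-14). The proteases Atg4a and Atg4d, which process the ATG8 proteins of the autophagosome, rose by 3.40 and 2.09, whereas Gabarapl1, an ATG8 protein, fell by 2.16. Alox15, the lipoxygenase linked to mitochondrial breakdown, was not well above background in CFUe and was at least 5.53-fold higher in Ter119, at levels that overlapped those of Mac1Gr1.

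Of 20 genes of nuclear condensation and extrusion, 6 were called higher (30.0%, against 29.3% of all genes) and 4 lower (20%, against 31.9%), with a median of -0.07, and 4 of the 6 rises were also high in Mac1Gr1. Xpo7, a nuclear exporter required for chromatin condensation in erythroblasts, stood at 6.73, 6.98 and 6.82 in Ter119, -0.29, -0.60 and -0.19 in CFUe and 0.56 to 0.59 in Mac1Gr1. The rise of 7.21 ± 0.12 (148-fold) had the smallest limma adjusted p among the genes named here, 1.26e-16. Rbm38, an RNA-binding splicing regulator of late erythroblasts, rose by 2.38 with an adjusted p of 4.87e-10 (limma). The deacetylase Hdac2 fell by 1.80.

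Isoforms of energy metabolism moved in both directions. Of 25 glycolysis genes, 10 were called higher and 6 lower (median 0.31, but -1.07 with spike-in scaling), and 9 of the 10 rises were also high in Mac1Gr1. The exception was Bpgm, which makes the 2,3-bisphosphoglycerate that lowers the oxygen affinity of haemoglobin: it stood at 7.54, 7.86 and 7.39 in Ter119, 0.28, 0.42 and 0.45 in CFUe and -1.03 to -0.83 in Mac1Gr1, and rose by 7.22 ± 0.13 (limma adjusted p 2.96e-16). The red cell pyruvate kinase Pklr fell by 3.36, muscle-type phosphofructokinase Pfkm by 4.6 and hexokinase Hk1 by 1.65 (its 5 probes lay between -2.5 and 0.2). Pkm and Hk3, other isoforms of pyruvate kinase and hexokinase, rose by 6.93 ± 0.51 and 6.78 ± 0.26 and were higher still in Mac1Gr1, by 2.24 and 2.45. On the CFUe arrays Pkm stood at -4.46, -4.28 and -1.40, with replicate 3 apart.

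In mitochondria most genes fell and a few isoforms rose. Of 77 tested genes of oxidative phosphorylation, 57 were called lower (74.0%, against 31.9% of all genes) and 2 higher (median -1.64). Of 23 citrate cycle genes 20 were lower (87.0%) and 2 higher (median -2.14). Idh3a, a subunit of isocitrate dehydrogenase, fell from 4.23 to 4.44 in CFUe to 0.27 to 0.30 in Ter119 (-4.02 ± 0.11, limma adjusted p 1.21e-14), and Atp5g1, of the ATP synthase ring, fell by 3.61. The 2 rises in oxidative phosphorylation were the heart and muscle isoforms Cox6a2 and Cox7a1. Cox6a2 stood at 3.10, 3.23 and 3.07 in Ter119, -4.26, -3.90 and -3.94 in CFUe and -0.25 to 0.27 in Mac1Gr1, a rise of 7.17 ± 0.16 (limma adjusted p 1.30e-15) that set every Ter119 array above all others, and Cox7a1 rose by 2.25. Mitochondrial ribosomal proteins fell in 76 of 78 genes (97.4%, median -2.42), led by Mrps18b and Mrpl12 (-4.25 each).

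Redox genes were called about as often as other genes, with 9 of 25 higher and 9 lower (36.0% each, against 29.3% and 31.9% of all genes, median -0.45), and 6 of the 9 rises were also high in Mac1Gr1. Catalase (Cat) rose by 2.55 ± 0.13 and Gpx1 by 2.36 ± 0.14 from an already high level of 7.30 to 7.59 in CFUe (limma adjusted p 1.87e-11 and 1.02e-10). Peroxiredoxin Prdx2 rose by 1.21 ± 0.15 and turned to -0.16 with spike-in scaling. Sod1 fell by 1.99 and Prdx6 by 2.88, where the 3 Prdx6 probes ran from -3.1 to -0.3.

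Survival and death genes of the BCL2 family moved both ways, with 7 of 15 higher and 5 lower (46.7% and 33.3%, against 29.3% and 31.9% of all genes). Of the 7 rises, 5 were also high in Mac1Gr1 and 2 exceeded it. The list median of -0.23 turned to 0.56 with the normexp background correction and to 0.57 with the sex-chromosome block. Bcl2l1, which encodes BCL-XL, the survival protein of late erythroblasts, stood at 4.67, 4.69 and 4.91 in Ter119, -2.25, -1.90 and -1.98 in CFUe and 0.78 to 0.99 in Mac1Gr1. It rose by 6.80 ± 0.15 (112-fold, limma adjusted p 9.58e-16), and its 3 probes gave 5.9 to 6.8. Bcl2 rose by 1.18 ± 0.17 and turned to -0.20 with spike-in scaling. The death effector Bax fell by 2.54 ± 0.37.

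Of the cell cycle genes, those of DNA replication mostly fell and those of mitosis mostly were not called. Of 39 replication genes, 35 were called lower (89.7%, against 31.9% of all genes) and 0 higher (median -1.93). Of the 39, however, 30 had a smaller loss than at the myeloid step, as given below. Mcm3, of the replicative helicase, stood at 3.23, 2.98 and 2.96 in CFUe and at 0.09, 0.50 and 0.77 in Ter119 (-2.60 ± 0.16, limma adjusted p 1.04e-10), and Orc2, of the origin recognition complex, fell by 3.14. Of 39 mitosis genes 13 were lower (33.3%, about the 31.9% of all genes) and 4 higher (10.3%, against 29.3%), with a median of -0.45. Cdc25b, a phosphatase that opens mitosis, stood at 6.06, 6.30 and 6.06 in Ter119, 0.37, 0.31 and 0.84 in CFUe and 2.91 to 3.0 in Mac1Gr1. It rose by 5.64 ± 0.13 (49.8-fold, limma adjusted p 1.99e-15), and its 3 probes gave 5.6 to 5.7. The securin Pttg1 rose by 1.85.

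Regulators of G1 were called higher in 12 of 23 (52.2%, against 29.3% of all genes) and lower in 6 (median 1.08, but -0.29 with spike-in scaling), and 7 of the 12 rises were also high in Mac1Gr1. The kinases Cdk4 and Cdk6 fell by 3.72 ± 0.12 and 2.90 ± 0.17. The inhibitors Cdkn2d, Cdkn1b, Cdkn1a and Cdkn2c rose by 4.33, 2.66, 2.08 and 1.59 (largest limma adjusted p of the 6, 2.10e-04). Cdkn2c and Cdkn1a exceeded Mac1Gr1 by at least 2-fold, whereas Cdkn2d and Cdkn1b did not. E2f2, a factor used in the last erythroblast divisions, stood at 7.32 to 7.49 in Ter119 and 2.27 to 3.23 in CFUe (4.6 ± 0.17, limma adjusted p 1.77e-13). Replication-dependent histones were higher in 6 of 28 and lower in 2 (21.4% and 7.14%, both under the 29.3% and 31.9% of all genes), and 20 were not called. Of the 6 rises, 4 were also high in Mac1Gr1. The histone median was 0.55, 0.53 with genes below background at their bound, but -0.82 with spike-in scaling.

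Transcription factors moved in both directions. Of 15 erythroid factors tested, 7 were called higher and 5 lower (46.7% and 33.3%, against 29.3% and 31.9% of all genes). The list median was -0.48, and 4 of the 7 rises were also high in Mac1Gr1. Klf1, a master activator of globin and membrane genes, stood at 3.74, 3.96 and 4.03 in CFUe and at 1.90, 2.55 and 2.73 in Ter119, and fell by 1.51 ± 0.41 (limma adjusted p 0.00324). Gfi1b, a repressor needed for erythroid growth, fell by 2.83, and Ldb1, which holds the GATA1 complex together, by 3.10 ± 0.16. Trim10, a late erythroid gene, rose by 5.89 ± 0.41 and lay 8.87 above Mac1Gr1, and Foxo3 rose by 2.37 ± 0.17 to a level 0.55 above Mac1Gr1. Of 16 progenitor factors, 7 were called higher and 4 lower (43.8% and 25.0%, against 29.3% and 31.9% of all genes), and 5 of the 7 rises were also high in Mac1Gr1. The list median was 0.52, 0.36 with genes below background at their bound, but -0.85 with spike-in scaling, and differences ran from -3.70 to 6.06. Among the falls, Myc fell by 3.70 ± 0.31, Hoxa9 by 2.91, Bcl11a by 2.56 and Myb by 1.78. The erythropoietin receptor Epor was not called (-0.81 ± 0.25). It was called lower with spike-in scaling (-2.19), normexp (-1.01) and the sex-chromosome block (-1.04), and stood at -0.38 with quantile scaling and -0.44 with the series table.

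**Figure D4:**
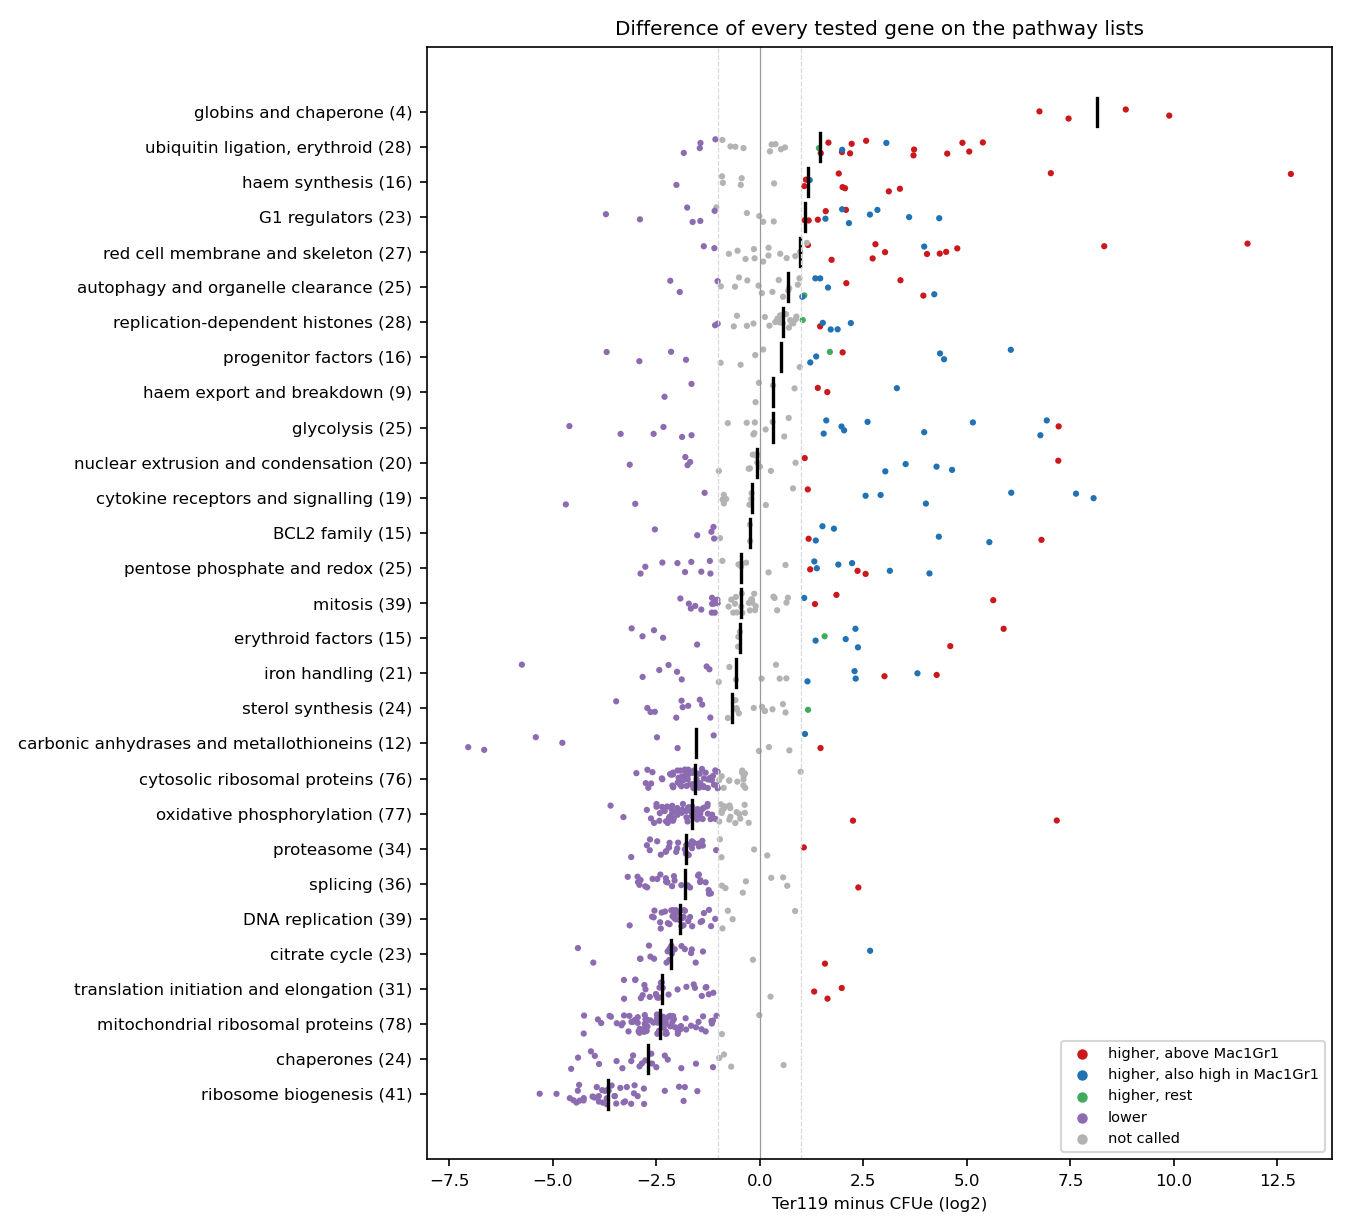
Difference between Ter119 and CFUe (log2, x axis) of every tested gene on 29 pathway lists, with the number of genes tested in brackets; black bars are list medians, colours give the call and dashed lines mark 2-fold. Ribosome biogenesis (median -3.67) lies at the bottom and globins (8.15) at the top, and red points, which exceed Mac1Gr1, gather in the haem, globin, membrane and ubiquitin lists. With spike-in scaling the medians of haem synthesis, haem export, membrane, progenitor factors, autophagy, G1 regulators, glycolysis and histones turn below 0.

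Ribosome biogenesis had the highest share of falls among the 29 pathway lists. All 41 tested genes of ribosome biogenesis were called lower (median -3.67), against 31.9% of all genes. Npm1, a nucleolar chaperone of ribosome assembly, stood at 8.18, 8.33 and 8.33 in CFUe and at 4.20, 4.33 and 4.65 in Ter119, and fell by 3.89 ± 0.12 (limma adjusted p 3.37e-14). Gar1, of the particle that modifies ribosomal RNA, fell most, by 5.32 ± 0.22 (limma adjusted p 8.03e-13), and Gnl3 fell by 4.91. The RNA polymerase I genes Polr1a and Ubtf fell by 2.30 and 1.51, the latter being the smallest fall of the list. Mac1Gr1 levels of these genes were lower still, by a median of 1.12.

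Translation itself followed. Of 31 initiation and elongation factors 27 were called lower (87.1%, against 31.9% of all genes) and 3 higher (median -2.37). Of 76 cytosolic ribosomal proteins 62 were lower (81.6%) and 0 higher (median -1.57). Eif3i fell by 3.28, and Rps19, the ribosomal protein mutated in Diamond-Blackfan anaemia, by 2.98 ± 0.19 (limma adjusted p 2.51e-10). Among the rises, Eif2ak1 (HRI), the haem-sensing kinase that matches globin translation to haem, rose by 1.98 ± 0.11 (limma adjusted p 3.40e-11) and exceeded Mac1Gr1 by 2.29, and Eif5 rose by 1.63.

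Folding, degradation and splicing fell too. Chaperones were lower in 20 of 24 (83.3%, against 31.9% of all genes) and higher in 0 (median -2.69). They were led by Hspd1 (HSP60), at -4.56 ± 0.17, and Cct3, of the ring that folds actin and tubulin, at -4.39 ± 0.14. Subunits and activators of the proteasome were lower in 29 of 34 (85.3%) and higher in 1 (median -1.77), with Psmd7 at -3.11. Splicing genes were lower in 28 of 36 (77.8%) and higher in 1 (median -1.82), with Snrpa1 at -3.19. Sterol synthesis was lower in 11 of 24 (45.8%, nearer to the 31.9% of all genes) and higher in 1 (median -0.68). Its enzyme Lss fell by 3.47 (limma adjusted p 1.27e-11). With normexp, spike-in or quantile scaling the medians of these lists kept their sign.

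The largest single falls were not in those lists. Mt2, a metallothionein that binds zinc and copper, stood at 7.53, 7.81 and 7.61 in CFUe and at 0.40, 0.70 and 0.72 in Ter119, a fall of 7.04 ± 0.32 (132-fold, limma adjusted p 2.89e-12), and Mt1 fell by 5.41 ± 0.22. In both fractions the 3 arrays lay close together, and the Ter119 levels of Mt2 overlapped those of Mac1Gr1 (0.31 to 0.60). Carbonic anhydrase Car1 fell from 7.11 to 7.38 in CFUe to 0.40 to 0.77 in Ter119 (-6.66 ± 0.33, limma adjusted p 7.74e-12), while Car2, the other main red cell isoform, stood at 7.38 to 7.68 in Ter119 and 7.39 to 7.57 in CFUe (-0.02 ± 0.12, limma adjusted p 0.878, and -1.40 with spike-in scaling).

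Other genes with the largest falls had varied functions. Mthfd1, a folate enzyme, fell by 6.04 ± 0.14 (limma adjusted p 2.35e-15), and Slc19a1, the folate carrier, by 5.45, with another Slc19a1 probe at -1.4. Nme4, a nucleoside diphosphate kinase of mitochondria, and the methyltransferase Smyd2 fell by 5.93 each. Smo, the transducer of Hedgehog signals, fell by 5.98, Arhgef25, a GTPase exchange factor, by 6.94, and the proteases Hpn, Mmp14 and Cela1 by 5.66, 5.59 and 5.37. Tmem238 fell by 5.39. For 5 genes no Ter119 array was well above background, and CFUe was at least 424-fold higher for Sdsl, a serine dehydratase-like enzyme, 108-fold for Nefh, a neurofilament, 107.1-fold for Grb10, an adaptor of growth factor receptors, 58.4-fold for Shank3 and 53.6-fold for Gdf3. Their limma adjusted p-values ran up to 7.26e-11.

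The first set of rises also held genes of other functions. Vav2, a GTPase exchange factor, stood at 7.82, 6.76 and 8.31 in Ter119, -1.60, -1.45 and -1.67 in CFUe and -1.31 to -0.60 in Mac1Gr1, and rose by 9.20 ± 0.32 (limma adjusted p 1.46e-13). Apol11b, of the apolipoprotein L family, rose by 7.96 ± 0.46 and exceeded Mac1Gr1 by 7.36. The interferon-inducible antiviral gene Rsad2 rose by 8.10 ± 0.29 and exceeded Mac1Gr1 by 3.52. Plek, a substrate of protein kinase C in platelets and leukocytes, Cd79b and the calcium-binding protein S100a4 rose by 9.25, 9.10 and 8.5 and exceeded Mac1Gr1 by 2.23, 1.94 and 1.34; these values and that of Rsad2 lie within the range of the T and NK cell markers.

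Rises that Mac1Gr1 shared were led by products of neutrophils. Retnlg, a resistin-like protein of neutrophils, stood at 8.72, 8.45 and 8.54 in Ter119, -4.09, -4.56 and -3.31 in CFUe and 9.17 to 9.33 in Mac1Gr1 (12.56 ± 0.87, limma adjusted p 6.26e-10). Every Ter119 array lay below every Mac1Gr1 array. The granule proteins Ltf, Ngp and Chil3 rose by 11.75, 11.09 and 10.07, the alarmin S100a8 by 9.92, and Camp, S100a6, Cd52, Hp and Ncf4 by 9.52 to 10.73. On CFUe replicate 3 Ltf stood at -0.85, against -3.98 and -3.25 on the other CFUe arrays. For 5 such genes no CFUe array was well above background, and Ter119 was at least 3106-fold higher for Pirb, an inhibitory receptor, 914-fold for Mmp9, a gelatinase, 806-fold for Chil1, 771-fold for Fpr2, a formyl peptide receptor, and 732-fold for Csta1, where another Csta1 probe did not differ (-0.0). All 22 granulocytic markers tested rose, with a median of 9.69 (9.56 with genes below background at their bound) and a median of -0.82 against Mac1Gr1. All 13 B cell markers rose as well (median 5.80, and 1.86 against Mac1Gr1), and none of the leukocyte medians turned below 0 with spike-in scaling.

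Of the rises in neither set, the 5 largest that met the same rule were small. Tnfrsf13c, the BAFF receptor of B cells, rested on 1 array: it stood at 1.95, 2.13 and -4.11 in CFUe and 2.81 to 3.12 in Ter119, and the rise of 2.93 (limma adjusted p 0.0176) became 0.88 without CFUe replicate 3. Plxna1, a semaphorin receptor, rose by 1.95, and another of its probes gave -2.5. Pramel39, Olfr1026 and Cyp4v3 rose by 2.17, 1.89 and 1.89.

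Finally, the step from CFUe to Ter119 was set against the step from GMP to Mac1Gr1, which shares no array with it. Of the genes called higher at the erythroid step, 2422 (57.8% of 4193) were also called higher at the myeloid step, where they made up 62.9% of 3853 (26.9% of genes tested). Of those called lower, 3147 were lower at both (69.0% of 4562 and 71.6% of 4398, which was 30.7% of genes tested). The difference between the steps was itself called for 3276 genes higher at the erythroid step (22.9%) and 2645 lower (18.5%). The DNA replication list differed most often among the lists of falls: 30 of its 39 genes lost less at the erythroid step, whose median was -1.93 against -3.48 for the myeloid step. Ribosome biogenesis had medians of -3.67 and -4.02, with 1 of 41 genes called higher and 4 lower in the difference.

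For 377 genes the steps ran in opposite directions, higher from CFUe to Ter119 and lower from GMP to Mac1Gr1 with the difference called, and for 92 genes the reverse. With spike-in scaling, which lowered each step by about the same amount for all genes, these counts were 712 and 37. Xpo7 rose by 7.21 at the erythroid step and fell by 1.42 at the myeloid step, a difference of 8.63 ± 0.17 (limma adjusted p 1.89e-15). Bpgm (7.22 and -1.26) and Ube2o (5.39 and -1.73) ran the same way. In reverse, Car1 fell by 6.66 at the erythroid step and rose by 2.04 at the myeloid step, a difference of -8.70 ± 0.46 (limma adjusted p 1.82e-10), and Pklr (-3.36 and 1.36) followed it. With spike-in scaling the myeloid rise of Car1 became 0.01 and that of Pklr turned to -0.67, while the differences between the steps were -8.04 and -4.06.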

How the data were processed

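RNA of 7 sorted marrow fractions was labelled with Cy3 and hybridised, with spike-in RNAs, to 21 Agilent mouse arrays of 1 colour. For each spot the deposited scanner files give a processed intensity, from which Agilent Feature Extraction 10.7.1.1 in the authors' hands had already subtracted background. Values in the deposited series table are on the log2 scale after a further normalization by the authors; column medians ran from 7.96 to 8.03, ranks within an array followed the scanner values, and the table served as an alternative. The authors' methods name limma for normalizing the arrays; its settings are not given in the sources used here.

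On each array 43379 non-control spots were read, outlier spots were dropped, spots of a probe were averaged (41174 probes), and log2 intensity was set to 0 at the 75th percentile. RefSeq accessions named 26682 probes (64.8%) through the GRCm38.p6 gene table, which was used for names and promoters; listed genes without a match, among them Ahsp, Hba-a2 and Kit, were not analysed here. A probe entered the test if some fraction had it well above background in its 3 arrays, which held for 29532 probes; 20999 of them had a symbol, for 14311 genes. A gene could thus pass through the fraction in which it was high. Each gene was read from the probe with the highest mean over 21 arrays.

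One limma model (3.58.1, R 4.3.3) was fitted to 7 fractions with 14 residual degrees of freedom and a median residual SD of 0.262. Tests were two-sided with Benjamini-Hochberg adjustment over all probes tested, and a call needed an adjusted p under 0.05 and at least 2-fold. With 3 arrays a fraction, the number of arrays limits the precision. Rises were put in a first set where Ter119 was also called above Mac1Gr1, in a second where it was not and Mac1Gr1 was called above CFUe, and otherwise in the remainder. Where a probe was not well above background on any array of a fraction, the fold is a bound: the mean of the bright fraction against, per dim array, the higher of the probe's own signal and the lowest signal well above background. On data simulated for Ter119 against CFUe with 29532 probes, of which 200 changed by 2 on the log2 scale, 173 (86.5%) were recovered with 9 false calls. The simulated noise was independent between probes and most probes did not change, so it could not show errors that come from the scaling. Python 3.11.15, pandas 2.3.3, numpy 2.4.6 and matplotlib 3.10.9 were used.

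The members, 29 pathway lists and 8 marker lists (1004 genes in all) were chosen with earlier results of these data known. Beside list genes, the text names the 10 largest rises of the first and of the second set, the 5 largest of the remainder and the 15 largest falls, from genes well above background on all 6 arrays and without overlap, and the 5 largest bounds each way; some genes that met the rule are not reported here. Alternatives were quantile scaling, scaling to 7 of 10 spike-in sequences, normexp (offset 50), no filter on dim probes, the series table, blocks for slide, replicate number or sex-chromosome transcripts, calls without a minimum fold or with a 4-fold one, 1 probe per gene, the compared fractions alone, a split by mean level alone, arrays that share a slide, and leaving out each array. An excess of 16-fold over Mac1Gr1 was added after seeing the data.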

Additional observations from a re-analysis of the deposited data

Results flagged for a closer look

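For 13 of the genes named above, the step from CFUe to Ter119 and the step from GMP to Mac1Gr1 ran in opposite directions, both called, and limma called the difference between the steps itself. Values are log2 differences, and no explanation was tested.

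Of these genes 9 rose at the erythroid step and fell at the myeloid step. The difference between the steps was 8.63 for the nuclear exporter Xpo7 (7.21 and -1.42), 8.47 for Bpgm (7.22 and -1.26) and 7.11 for Ube2o (5.39 and -1.73). It was 5.52 for the mitochondrial transporter Abcb10 (2.06 and -3.47), 4.69 for the cell cycle inhibitor Cdkn1a (2.08 and -2.61) and 4.51 for catalase, Cat (2.55 and -1.96). In haem synthesis it was 2.54 for Uros (1.07 and -1.47). It was 4.10 for peroxiredoxin Prdx2 (1.21 and -2.88) and 3.46 for the survival gene Bcl2 (1.18 and -2.28). With spike-in scaling the erythroid rises of Uros, Bcl2 and Prdx2 turned to -0.30, -0.20 and -0.16, and the differences between the steps were 3.20, 4.12 and 4.76.

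The other 4 genes fell at the erythroid step and rose at the myeloid step. The difference was -8.70 for carbonic anhydrase Car1 (-6.66 and 2.04), -4.72 for pyruvate kinase Pklr (-3.36 and 1.36), -3.45 for the RNA polymerase I subunit Polr1a (-2.30 and 1.15) and -3.01 for the haem exporter Flvcr1 (-1.65 and 1.36). With spike-in scaling the myeloid rises of Pklr, Polr1a and Flvcr1 turned to -0.67, -0.88 and -0.67 and that of Car1 became 0.01, with differences between the steps of -4.06, -2.79, -2.35 and -8.04 in that order. For these 4 genes, and for Uros, Bcl2 and Prdx2, the opposite direction thus depended on the scaling, whereas the sign of the difference between the steps did not.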

How the results depend on the processing

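Counts of probes depended on the scaling and on the fold asked for. Of 16884 probes called (8604 higher, 8280 lower, 11800 for the difference between the steps), leaving out 1 array gave 16273 to 16980 (8169 to 8732 higher, 8104 to 8329 lower, 11402 to 11980). Spike-in scaling gave 4057 higher and 16558 lower. A 4-fold minimum gave 8662 calls (5072 higher, 3590 lower, 5066 for the steps), 1 probe per gene gave 8760 (4196, 4564 and 5942), and normexp gave 7766 for the steps. The first set of rises, 2983 probes (2759 to 3108 without 1 array), became 1289 with spike-in scaling, 1821 with normexp, 1293 at 4-fold, 1557 with 1 probe per gene and 452 with a 16-fold excess over Mac1Gr1. The second set, 4875 (4721 to 5004), became 2571 with spike-in scaling, 3015 at 4-fold and 2257 with 1 probe per gene. The remainder, 746 (651 to 859), became 453 with quantile scaling, 197 with spike-in scaling, 2138 with normexp, 1143 without the filter, 420 with the series table and 382 with 1 probe per gene.

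With spike-in scaling, differences turned for Ank1 (-0.21), Bcl2 (-0.20), Prdx2 (-0.16), Urod (-0.26) and Uros (-0.30), and list medians for haem synthesis (-0.22), haem export (-1.06), membrane (-0.40), progenitor factors (-0.85), autophagy (-0.69), G1 regulators (-0.29), glycolysis (-1.07), megakaryocyte and platelet markers (-0.82) and histones (-0.82). The BCL2 list turned to 0.56 with normexp and 0.57 with the sex-chromosome block. The calls of Abcb10, Atg4d, Cdkn1a, Cdkn2c, Cox7a1, Eif2ak1, Eif5, Foxo3, Gpx1, Kel, Ppox, Pttg1, Sptb and the rises in neither set were also lost with spike-in scaling. Normexp lost those of Hdac2 (-0.60), Steap3 (-0.49), Urod (0.93) and Uros (0.99). Slc11a2 lost its call with quantile scaling (-0.93) and the series table (-0.99), and Prdx2 with the series table (0.77). Slide as a block lost Uros (0.91), Ank1 (0.90) and Tnfrsf13c (2.33, limma adjusted p 0.0673). The cause was not tested.

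Replicate numbers did not pair the arrays: deviations of same-numbered Ter119 and CFUe arrays correlated at 0.027, -0.044 and 0.023, and the replicate block gave 16869 calls (8594 higher, 8275 lower). Signal over background limits the dim genes, whose folds are bounds.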

Other observations

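Genes outside the lists stood as far above Mac1Gr1 as the listed globins did. The 3 given here were picked after their values had been seen, among genes well above background on all 3 Mac1Gr1 arrays, with no test beyond the fit across all probes. Rec114, a gene of meiotic recombination, rose by 3.88 from CFUe to Ter119 on the log2 scale and lay 10.38 above Mac1Gr1. Prxl2a, a peroxiredoxin-like gene, rose by 3.67 and lay 8.83 above it. Tspan33, a tetraspanin, already stood at a mean of 5.93 in CFUe, rose by 1.33 to Ter119 and lay 8.32 above Mac1Gr1.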
